A study of Mus musculus with 24 samples.

Results

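Nuclear receptors are transcription factors that bind DNA, and many of them are switched by a small lipophilic ligand. Here 33 mouse genes of the superfamily were taken by symbol from the 78298 gene IDs of the deposited table. All 33 were found, and 32 passed the expression filter. RNA sequencing counted transcripts in livers of 6 normal control mice and of 18 mice of a steatohepatitis model, with 1 library per mouse. The labels give neither strain, age, sex, diet nor any agent for the mice of either group, nor what both groups share. They name the tissue as liver, and the hepatocyte transcripts Alb and Cps1 were present in every library. The labels give no more than a number per mouse, and p-values measure only the spread between these mice.

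In the liver, receptors of this superfamily read bile acids, fatty acids, oxysterols, foreign compounds, retinoids and hormones, and set the transcription of the genes that handle them. Most of the lipid and xenobiotic sensors bind DNA as a pair with a retinoid X receptor. The orphan receptors have no agreed natural ligand or act without one, and the NR4A members among them are immediate early genes, which a cell can induce within a short time of a stimulus.

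Library totals were 31.6 to 58.4 M counts, so 3 counts stood for 0.0514 to 0.0949 CPM, the usual scaling of counts to a library of fixed size. Levels below are CPM on library sizes scaled by TMM factors, which balance the composition of the libraries. A gene was called when the Benjamini-Hochberg adjusted p of edgeR's quasi-likelihood test, taken over all 17456 genes tested, was below 0.05. By that rule 60.0% of all genes tested were called, 31.2% higher and 28.8% lower in the model livers. Among markers of other cell types, 8 of 9 macrophage, 7 of 7 stellate cell, 7 of 8 endothelial, 5 of 5 T cell, 4 of 4 B cell and 3 of 4 neutrophil genes were higher. Of 7 hepatocyte markers, 6 were lower, and of 5 cholangiocyte markers none was called. The summed macrophage markers lay between 55.2 and 148 CPM in controls and between 290 and 961 CPM in model mice, while those of hepatocytes lay between 120827 and 187837 and between 60868 and 121603 CPM. In whole tissue, fewer cells of a type and less RNA per cell cannot be told apart, and the part of the changed cell mixture in the receptor values was not tested. Clock genes also differed: an index of Arntl and Npas2 minus Dbp, Ciart and Per3 (log2) ran from -6.02 to 1.35 in controls and from -4.48 to -2.61 in model mice. Control 6, at -6.02, lay below all model mice, and the other controls, at -2.02 or higher, lay above all of them. No control was inside the model range, so fits with this index as a covariate cannot cleanly part it from the group. The time of collection is not in the labels. Among the model mice, 4 libraries (models 3, 13, 16 and 18) had the highest share of counts in 89 ribosomal protein genes, 0.728 to 0.746% against 0.535 to 0.679% in the other 14 and 0.594 to 0.733% in controls. The receptor results that rest on them are given with and without them.

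The sequences printed below are the 250 bases before the annotated start of 5 members, from RefSeq windows in build GRCm38.p6, which is not the build of the count table (GRCm39). Of the 33 members, 32 had a window. Each is written 5′ to 3′ along the gene, with the searched motif in capitals on either strand. The 3 NR4A genes are shown because 2 of them had the largest relative increases among the orphan receptors while the third did not pass, and the capitals mark TGACG or its reverse complement CGTCA, the core of the cAMP response element.

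Nr4a1, chr15:101266596-101266845, plus strand: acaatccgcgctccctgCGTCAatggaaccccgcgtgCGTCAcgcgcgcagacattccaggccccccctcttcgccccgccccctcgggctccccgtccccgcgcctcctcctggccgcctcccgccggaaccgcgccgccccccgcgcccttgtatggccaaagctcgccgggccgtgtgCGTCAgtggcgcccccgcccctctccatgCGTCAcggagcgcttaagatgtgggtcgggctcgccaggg
Nr4a2, chr2:57124004-57124253, minus strand: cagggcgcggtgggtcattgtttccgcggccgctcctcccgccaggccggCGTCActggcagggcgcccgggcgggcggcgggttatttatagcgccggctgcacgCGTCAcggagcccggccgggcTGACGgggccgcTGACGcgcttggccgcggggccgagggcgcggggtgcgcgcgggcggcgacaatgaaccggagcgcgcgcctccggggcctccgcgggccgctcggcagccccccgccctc
Nr4a3, chr4:48045055-48045304, plus strand: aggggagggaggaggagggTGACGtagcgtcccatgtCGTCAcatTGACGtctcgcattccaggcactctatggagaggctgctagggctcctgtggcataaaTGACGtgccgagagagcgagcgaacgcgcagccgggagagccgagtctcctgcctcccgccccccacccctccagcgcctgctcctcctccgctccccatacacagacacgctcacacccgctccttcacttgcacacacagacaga

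Each of the 3 windows held 4 copies of the core. One copy or more was found in 17.8% of all 32851 windows, and 4 or more in 0.137%. The count of cores was therefore equal in Nr4a1, which did not pass the test between groups, and in Nr4a2 and Nr4a3, which did. Rarb and Pparg are shown because both rose and because nuclear receptors themselves bind such hexamers. In Rarb the capitals mark a direct repeat of receptor binding hexamers with 5 bases between them, the arrangement that retinoic acid receptors bind. In Pparg they mark AGGTCA, the consensus hexamer of the superfamily, and only the 2 start windows that hold it are printed.

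Rarb, chr14:16575477-16575726, minus strand: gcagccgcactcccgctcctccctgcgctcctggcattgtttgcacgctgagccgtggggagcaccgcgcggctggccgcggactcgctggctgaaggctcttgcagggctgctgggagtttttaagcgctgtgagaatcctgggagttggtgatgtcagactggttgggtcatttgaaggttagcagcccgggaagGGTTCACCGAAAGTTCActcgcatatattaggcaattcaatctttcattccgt
Pparg, upstream start, chr6:115360894-115361143, plus strand: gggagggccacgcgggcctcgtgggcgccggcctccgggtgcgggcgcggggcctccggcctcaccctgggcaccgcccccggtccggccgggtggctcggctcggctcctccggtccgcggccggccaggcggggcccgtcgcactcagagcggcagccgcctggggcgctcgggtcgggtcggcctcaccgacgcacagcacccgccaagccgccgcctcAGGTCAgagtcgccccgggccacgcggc
Pparg, downstream start, chr6:115362099-115362348, plus strand: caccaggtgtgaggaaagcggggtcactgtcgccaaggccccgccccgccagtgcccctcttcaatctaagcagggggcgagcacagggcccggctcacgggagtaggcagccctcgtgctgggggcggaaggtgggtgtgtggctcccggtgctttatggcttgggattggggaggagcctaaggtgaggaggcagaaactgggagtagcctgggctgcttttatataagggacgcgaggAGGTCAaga

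The same repeat, with these 2 hexamers and any 5 bases between them, was in 2 of the 32851 windows (0.00609%). The hexamers searched are exactly those of the Rarb window, so the low share does not measure how rare such repeats are in general. The AGGTCA hexamer was in 14.0% of all windows and in 9 of the 50 windows of the members. Those windows belonged to 8 members that did not move alike. Pparg and Rarg were higher in model livers, Nr1h4, Rxra, Nr5a2 and Thrb were lower, and Rxrg and Nr6a1 did not pass. These matches describe letters in a short window and not binding.

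Per length of exon, the most abundant of the 33 members were Nr1h4, the bile acid receptor FXR, and Rxra, the main liver retinoid X receptor. In CPM per kilobase, mean ± SD, Nr1h4 stood at 87.8 ± 10.4 in controls (n = 6) and 63.8 ± 6.32 in model mice (n = 18), and Rxra at 73.2 ± 15.1 and 56.1 ± 7.63. These 2 neighbours overlapped within their spread in each group. Nr1i2 followed at 51.1 ± 8.98 and 31.1 ± 3.11, then Nr1h3 at 37.1 ± 2.55 and 34.2 ± 2.49. In model mice this pair overlapped within its spread. Nr0b2, Ppara, Nr1i3, Pparg and Nr1h2 came next over all 24 libraries. Pparg stood at 4.67 ± 1.18 in controls and 12.2 ± 2.63 in model mice, level with Nr1i3 (11.2 ± 4.23) there. Of the 33 members, 22 averaged at least 1 CPM per kilobase. At the low end were Nr4a3 (0.0158 ± 0.0115 and 0.0695 ± 0.0337), Nr2f1 (0.0313 ± 0.0152 and 0.0567 ± 0.0208) and Vdr, the vitamin D receptor (0.00439 ± 0.00359 and 0.0195 ± 0.0130).

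**Figure D1:**
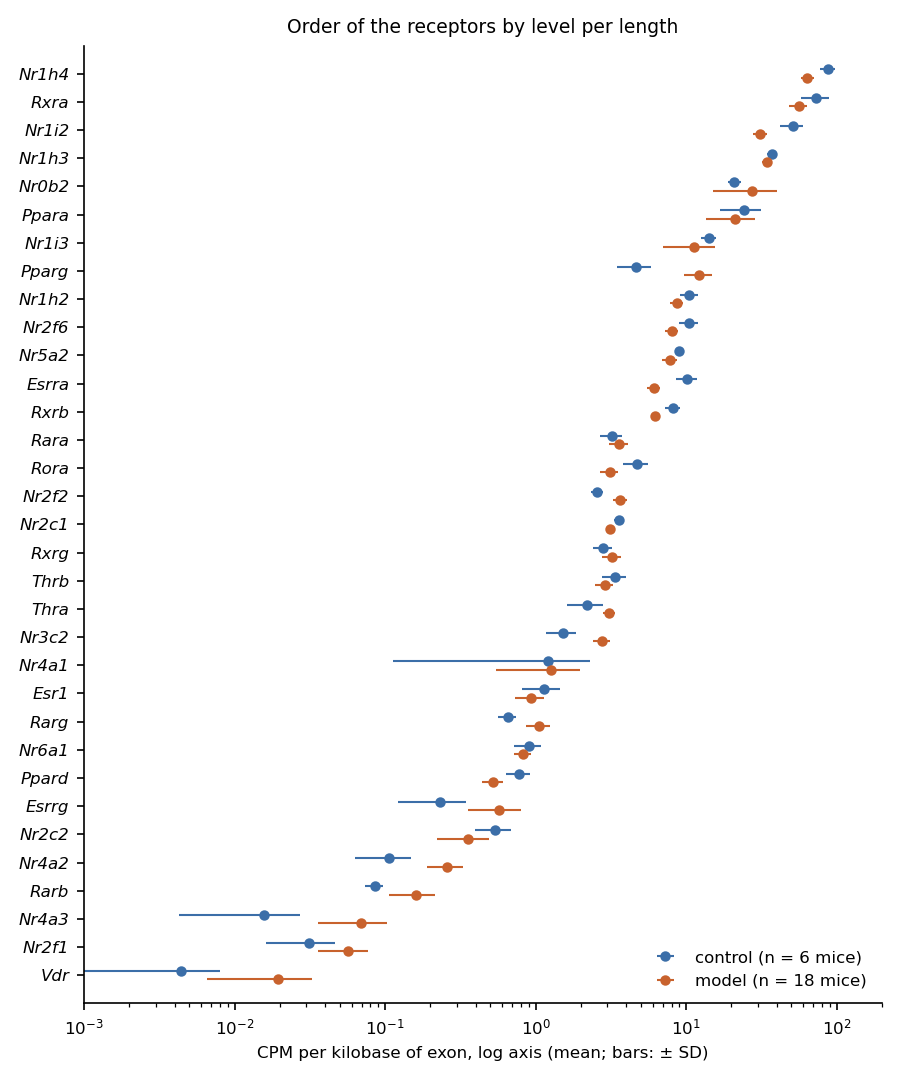
Mean level of each of the 33 receptors in CPM per kilobase of exon (horizontal log axis, bars ± SD) in 6 control (blue) and 18 model (orange) mice, ordered by the mean over all libraries. Nr1h4 leads at 87.8 in controls and Vdr is last at 0.00439.

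Of the 32 members tested, 23 were called (71.9%, against 60.0% of all genes): 10 were higher and 13 lower in model livers, and 9 did not pass. The median log2 fold change of the members was -0.16, against 0.01 over all genes tested. Changes of at least 2-fold were found in 4 members, Pparg, Nr4a2, Nr4a3 and Esrrg, all of them higher, where 19.7% of all genes had a called change of that size. No model mouse overlapped any control in 4 members that were higher (Pparg, Rarg, Nr3c2 and Nr4a3; 9.67% of all genes) and in 3 that were lower (Nr1i2, Rxrb and Esrra; 6.02%). The calls of 12 members held in each alternative in which the member was tested: Pparg, Rarb, Rarg, Thra, Nr2f2, Nr3c2, Nr4a2, Nr4a3 and Esrrg among those that rose, and Nr1i2, Rora and Esrra among those that fell. The scaling bears on the calls: with library totals alone the median of all genes moved from 0.01 to 0.34, 14 members were higher and 3 lower, and those 3 were Nr1i2, Rora and Esrra. Nr4a3 and Nr2f1 were too low to be tested with the filter of 1 CPM in 6 libraries. Leaving out the 4 libraries of high ribosomal protein share gave 10 higher and 13 lower members, and 22 of the 23 calls held. With the clock covariate 10 were higher and 9 lower.

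**Figure D2:**
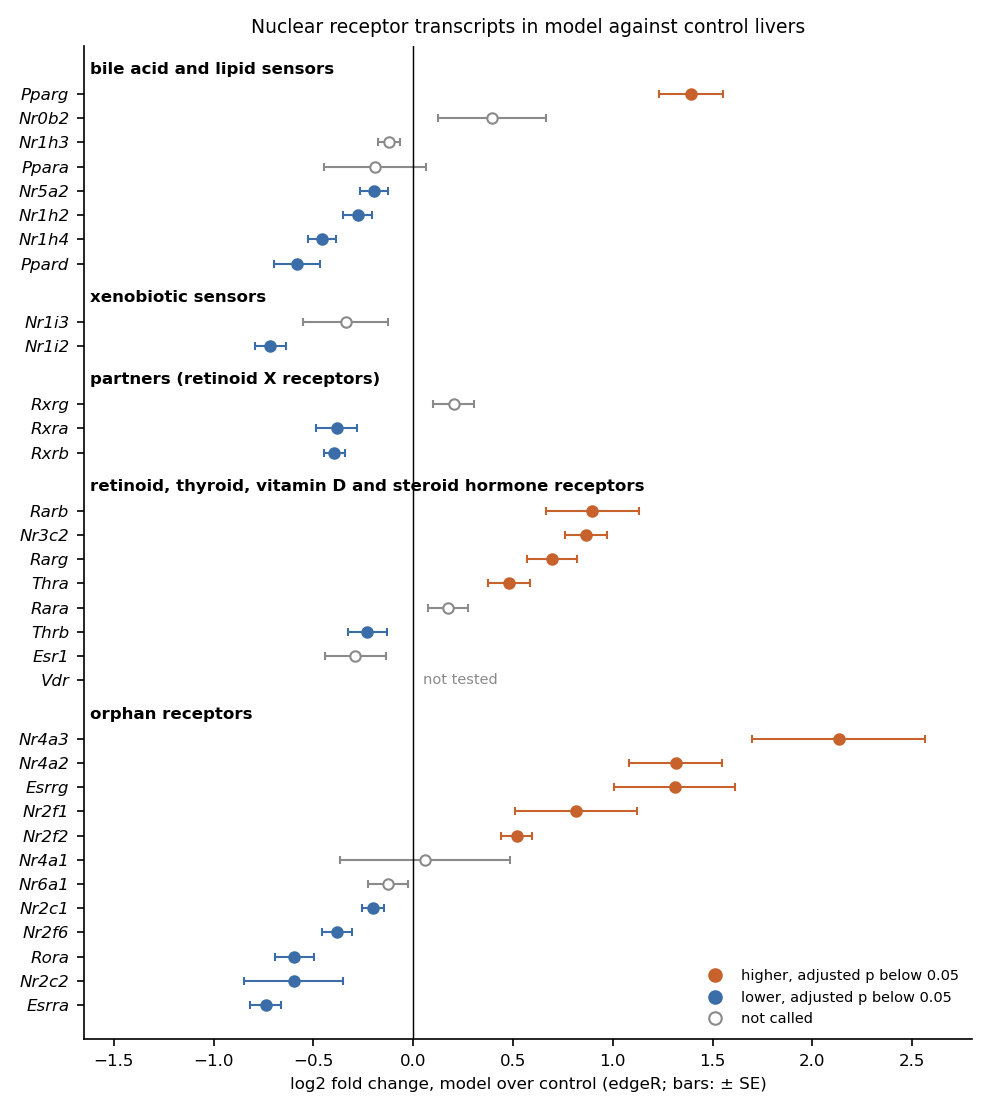
Log2 fold change of each receptor, model over control, by role (horizontal axis; points edgeR estimates, bars ± SE; filled points adjusted p below 0.05). Nr4a3, Pparg, Nr4a2 and Esrrg lie at or above 1.31, and no lower member reaches -1.

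Among the 8 bile acid and lipid sensors and their partners in bile acid control, Pparg rose, 4 members fell and 3 did not pass. Pparg (chr6:115337912-115467360 in GRCm39, plus strand) encodes PPARγ, the fatty acid receptor that drives lipid storage in fat cells and is low in normal liver. Its level was 9.09 to 19.0 CPM in controls, with a median of 13.6, and 20.1 to 51.1 CPM in model mice, with a median of 36.5. All 18 model mice were above all controls (log2 fold change 1.39, SE 0.16, adjusted p = 4.97e-08). The 4 adipocyte markers summed to at most 0.198 CPM in any model mouse, and none of them passed the expression filter. Fitted with the clock index as a covariate, Pparg stood at 1.12 (adjusted p = 7.93e-05).

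Nr1h4 (chr10:89290096-89369447, minus strand), which encodes the bile acid receptor FXR, was lower. Controls held 177 to 233 CPM with a median of 198, and model mice 120 to 188 CPM with a median of 148. A single model mouse, model 3, reached the control range (log2 fold change -0.46, SE 0.07, adjusted p = 3.71e-06). With library totals alone the value was -0.13 and did not pass (adjusted p = 0.0626). Nr0b2 (chr4:133280687-133283847, plus strand), the small heterodimer partner that FXR induces and that represses bile acid synthesis, had model values on both sides of the control range. Its control level was narrow, 19.9 to 26.3 CPM with a median of 24.2, while model mice ran from 14.0 to 55.7 CPM with a median of 29.8. In 10 model mice it was above all controls and in 6 below all controls, and the mean did not pass (0.39, SE 0.27, adjusted p = 0.217). Nr0b2 was called higher with library totals alone (0.71, adjusted p = 0.0219).

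Ppara, the receptor of fatty acids that drives their oxidation, spread just as widely. It ran from 44.7 to 122 CPM in controls (median 96.4) and from 29.0 to 124 CPM in model mice (median 89.2), and did not pass (-0.19, SE 0.25, adjusted p = 0.532). Its 4 lowest model values were those of the 4 libraries of high ribosomal protein share, and without them the value was 0.020 (adjusted p = 0.923). The value was 0.12 with library totals alone. Ppard, which encodes the related receptor PPARδ, fell from a median of 5.68 to 4.00 CPM (-0.58, SE 0.12, adjusted p = 0.000101), with 14 model mice below all controls. It did not pass with library totals alone (-0.25, adjusted p = 0.0713). The 2 liver X receptors, sensors of oxysterols, moved little. Nr1h2 (LXRβ) fell by 0.28 on the log2 scale (SE 0.07, adjusted p = 0.00186). With the clock covariate Nr1h2 was -0.15 and did not pass (adjusted p = 0.181), and with library totals alone it was 0.048. Nr1h3 (LXRα), the more abundant of the pair, stood at medians of 93.1 and 84.7 CPM and did not pass (-0.12, adjusted p = 0.0627). Nr1h3 passed with DESeq2, without control 4 or without model 2, 3 or 18, at -0.15 to -0.13, as it did with RLE factors and without the 4 libraries of high ribosomal protein share (-0.13, adjusted p = 0.0242). Nr1h3 was called higher with library totals alone (0.21, adjusted p = 0.00163). Nr5a2 (LRH-1), a regulator of bile acid synthesis, was lower by a small margin (-0.20, SE 0.07, adjusted p = 0.0189). Its call was lost with the clock covariate (adjusted p = 0.146), with upper-quartile factors and with no expression filter, and its value with library totals alone was 0.13.

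Both xenobiotic sensors had lower medians in model livers, and 1 of them was called. Nr1i2 (PXR, chr16:38068685-38115186, minus strand) lay between 103 and 160 CPM in controls, with a median of 132, and between 66.0 and 96.5 CPM in model mice, with a median of 79.3. All 18 model mice were below all controls (-0.72, SE 0.08, adjusted p = 2.44e-08). Nr1i3 (CAR, chr1:171041539-171048270, plus strand) lay between 54.7 and 74.9 CPM in controls (median 61.0) and between 21.2 and 87.0 CPM in model mice (median 45.6). In 11 model mice it was below all controls and in 2 above all controls, and the mean did not pass (-0.34, SE 0.21, adjusted p = 0.178). Its exons share 74.9% of their bases with Tomm40l on the opposite strand. The sources do not say whether the counting used the strand, and without it the reads of that stretch cannot be told apart. Tomm40l averaged 6.04 CPM in controls and 9.69 CPM in model mice.

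Of the 3 retinoid X receptors, the shared partners, 2 fell. Rxra (chr2:27566452-27652969, plus strand) ran from 363 to 628 CPM in controls (median 446) and from 247 to 425 CPM in model mice (median 359). In 10 model mice it was below all controls (-0.38, SE 0.10, adjusted p = 0.00207). Rxrb (chr17:34250786-34257373, plus strand) was the steadiest member over model mice, at 22.3 to 27.3 CPM with a median of 24.9, against 28.1 to 38.7 CPM with a median of 32.2 in controls. The groups did not overlap (-0.40, SE 0.05, adjusted p = 3.74e-07). With library totals alone Rxra was -0.06 (adjusted p = 0.598) and Rxrb -0.07 (adjusted p = 0.346). Rxrg, scarce in both groups at medians of 6.17 and 7.28 CPM, did not pass (0.20, adjusted p = 0.0904). Rxrg was called higher without control 5 (0.27, adjusted p = 0.0317), with upper-quartile factors, with the filter of 1 CPM in 6 libraries and, by more, with library totals alone (0.53, adjusted p = 1.86e-05).

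Of the 8 retinoid, thyroid, vitamin D and steroid hormone receptors, 4 rose, 1 fell, 2 did not pass and Vdr was not tested. Rara, the most abundant of them per length, did not pass: 11.0 to 16.8 CPM in controls (median 13.9) and 11.6 to 19.8 CPM in model mice (median 15.6; 0.17, SE 0.10, adjusted p = 0.139). It was called higher with library totals alone (0.51, adjusted p = 0.000173) and with upper-quartile factors (0.27). Rarg (chr15:102143373-102165952, minus strand) rose without overlap, from 2.19 to 3.24 CPM in controls (median 2.87) to 3.33 to 6.45 CPM in model mice (median 4.42; 0.70, SE 0.13, adjusted p = 3.11e-05). Rarb, whose promoter window is printed above, was scarce in controls, at 0.391 to 0.571 CPM with a median of 0.440. In model mice it held 0.491 to 1.34 CPM with a median of 0.819, above all controls in 13 of 18 mice (0.90, SE 0.23, adjusted p = 0.00179). All 3 retinoic acid receptors thus had higher medians in model livers, and 2 were called. Rarb is known for its level in stellate cells, whose 7 markers all rose, and 34.1% of its exon bases overlap Top2b on the opposite strand. Over the model mice Rarb had r = 0.29 with the mean of the stellate cell markers (adjusted permutation p = 0.325).

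Nr3c2, the mineralocorticoid receptor gene (chr8:77626070-77971641, plus strand), lay between 7.85 and 13.5 CPM in controls, with a median of 9.00, and between 13.9 and 20.7 CPM in model mice, with a median of 18.2. The groups did not overlap (0.86, SE 0.11, adjusted p = 1.09e-07). The thyroid hormone receptors went apart. Thra rose from a median of 10.3 to 14.4 CPM (0.48, SE 0.10, adjusted p = 0.000294). Thrb, the main form of hepatocytes, had medians of 26.2 and 22.2 CPM and passed narrowly (-0.23, SE 0.10, adjusted p = 0.0449). The Thrb call was lost without control 1, 3, 4 or 6, without model 2, 3, 13, 14, 15, 16 or 18, and with limma-voom, upper-quartile factors, both other filters and the clock covariate (-0.27, adjusted p = 0.0947). It was also lost without the 4 libraries of high ribosomal protein share (-0.16, adjusted p = 0.121), and the Thrb value was 0.094 with library totals alone. Thra shares 5.70% of its exon bases with Nr1d1 on the opposite strand, which averaged 20.7 CPM in controls and 90.2 CPM in model mice. Esr1, the estrogen receptor gene, had medians of 16.1 and 12.8 CPM and did not pass (-0.29, adjusted p = 0.0995). It passed without control 4 (adjusted p = 0.0473), control 5 (0.0252) or model 8 (0.0390), and was 0.039 with library totals alone. Vdr had 5 counts in all 6 controls together and 84 in all 18 model mice, with none in 2 control and 2 model libraries, and 15 model mice were above all controls.

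**Figure D3:**
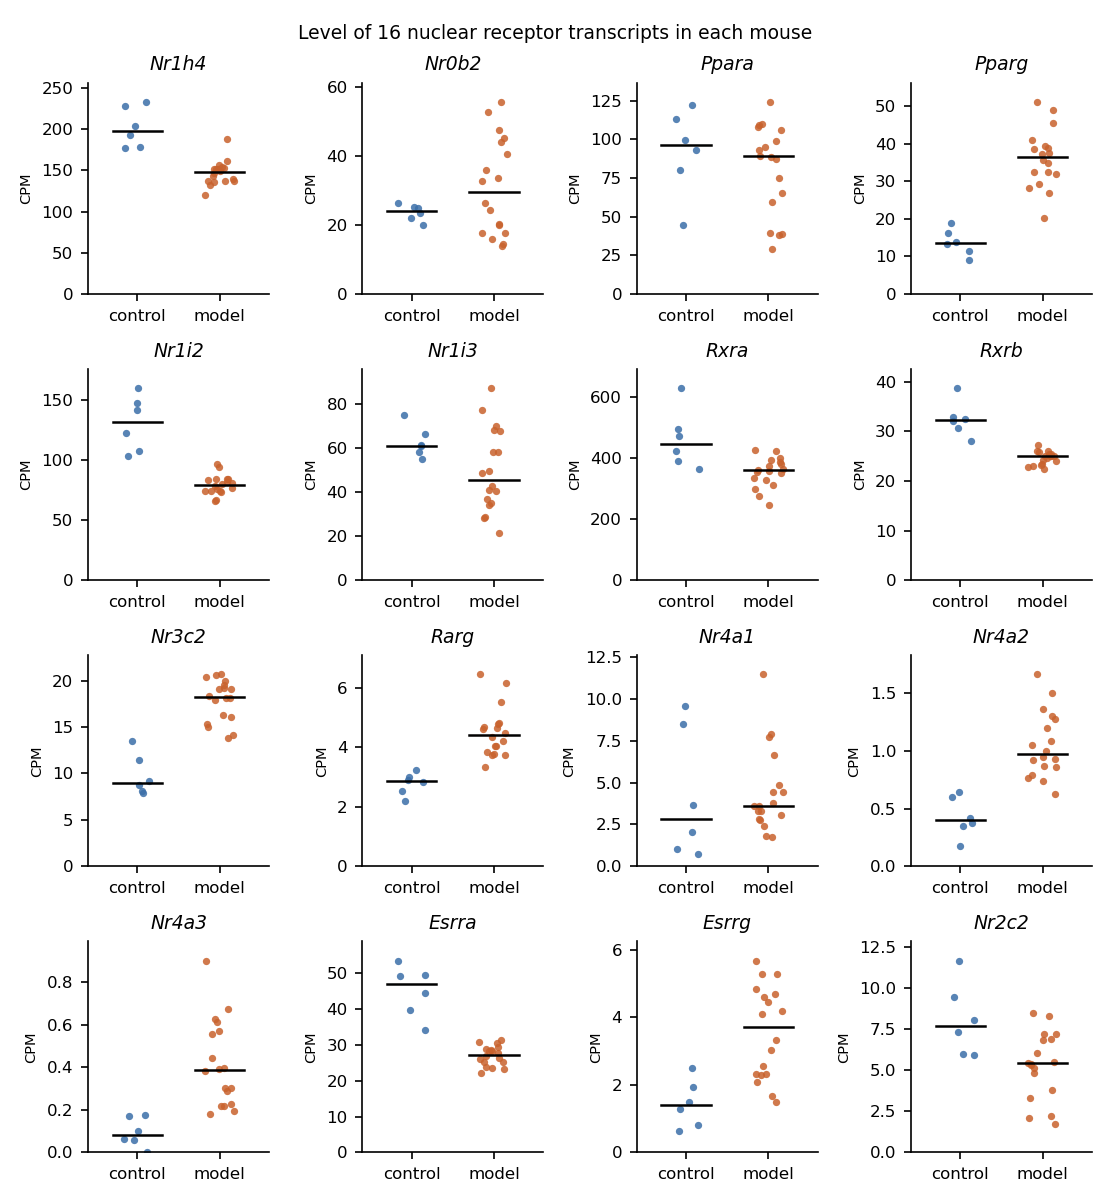
Level of 16 receptors in each mouse in CPM (vertical linear axes from 0; points are mice, black bars medians; 6 control and 18 model mice). Pparg, Nr3c2, Rarg and Nr4a3 separate upwards and Nr1i2, Rxrb and Esrra downwards, while Nr0b2, Nr1i3 and Ppara spread on both sides of the control medians.

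Among the 12 orphan receptors 5 rose, 5 fell and 2 did not pass. The 3 NR4A genes did not move alike. Nr4a3 (NOR1, chr4:48045153-48086447, plus strand) was at 0 to 0.178 CPM in controls, with a median of 0.0811 and 18 counts in all, and at 0.180 to 0.901 CPM in model mice, with a median of 0.386 and 327 counts. Its groups did not overlap, though the highest control and the lowest model mouse nearly met (2.13, SE 0.43, adjusted p = 0.00014). Nr4a2 (NURR1, chr2:56996842-57014015, minus strand) rose from 0.174 to 0.642 CPM in controls (median 0.398) to 0.629 to 1.66 CPM in model mice (median 0.971), with 17 of 18 model mice above all controls (1.31, SE 0.23, adjusted p = 2.4e-05). Nr4a1 (NUR77, chr15:101152150-101172676, plus strand), the most abundant of the 3, ran from 0.764 to 9.60 CPM in controls (median 2.84) and from 1.76 to 11.5 CPM in model mice (median 3.59). Both groups covered nearly the same range (0.06, SE 0.43, adjusted p = 0.91). The Nr4a1 value was -0.63 with the clock covariate (adjusted p = 0.259). Other immediate early genes were called in both directions, 5 of 11 higher and 2 lower (7 and 1 with library totals alone), led by Egr2 (log2 fold change 4.54) and Egr3 (3.33).

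The estrogen-related receptors among the members, which drive mitochondrial genes, moved in opposite directions. Esrrb, of the same family but not a member, did not pass (0.59, SE 0.30, adjusted p = 0.0905). Esrra (chr19:6888345-6899208, minus strand) fell from 34.1 to 53.4 CPM in controls (median 46.9) to 22.2 to 31.3 CPM in model mice (median 27.2). Its groups did not overlap (-0.74, SE 0.08, adjusted p = 9.53e-09), and it had the lowest fold change of all members. Esrrg (chr1:187340988-187947082, plus strand) ran from 0.646 to 2.50 CPM in controls (median 1.39) and from 1.48 to 5.68 CPM in model mice (median 3.72). In 12 model mice it was above all controls (1.31, SE 0.30, adjusted p = 0.000569), and per length it stayed under Esrra in both groups, at 0.574 ± 0.221 against 6.11 ± 0.619 CPM per kilobase in model mice.

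Of the COUP-TF genes, Nr2f2 rose from a median of 21.1 to 31.7 CPM with 17 model mice above all controls (0.52, SE 0.08, adjusted p = 1.99e-06). It is known from endothelial and other stromal cells, and 7 of 8 endothelial markers rose. Over the model mice Nr2f2 had r = -0.01 with the mean of the endothelial markers (adjusted permutation p = 0.966). Nr2f1 was near the limit of counting, at medians of 0.156 and 0.290 CPM (0.82, SE 0.31, adjusted p = 0.023), and its call was lost without control 3 or control 5 (largest adjusted p = 0.0748). Nr2f6, the most abundant per length of the orphan receptors among the members, ran from 25.7 to 38.0 CPM in controls (median 30.4). In model mice Nr2f6 ran from 18.9 to 30.6 CPM (median 23.6; -0.38, SE 0.08, adjusted p = 9.66e-05). Its value was -0.05 with library totals alone, and 54.4% of its exon bases overlap Ocel1 on the opposite strand. Rora, which activates clock genes that Nr1d1 represses, fell from a median of 63.2 to 40.4 CPM, with 9 model mice below all controls (-0.60, SE 0.10, adjusted p = 8.67e-06). The testicular receptors Nr2c1 and Nr2c2 were lower. Nr2c1 had a small change (-0.20, SE 0.06, adjusted p = 0.00285), which was 0.13 with library totals alone and did not pass with upper-quartile factors or with no expression filter. Nr2c2 (chr6:92068371-92151275, plus strand) ran from 5.96 to 11.7 CPM in controls (median 7.69) and from 1.72 to 8.50 CPM in model mice (median 5.43; -0.60, SE 0.25, adjusted p = 0.0409). The Nr2c2 call was lost without control 1, 3, 4 or 5, without model 1, 5 or 13, with upper-quartile factors and with both other filters. It was also lost with the clock covariate (-0.34, adjusted p = 0.424) and with library totals alone (-0.28, adjusted p = 0.353). Without the 4 libraries of high ribosomal protein share it was -0.39 (adjusted p = 0.0326). Nr6a1 (GCNF), a receptor of germ cells, did not pass (-0.13, adjusted p = 0.293) and was 0.20 with library totals alone.

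Over the model mice alone, the levels of the members spread unequally. The ratio of the highest to the lowest model mouse went from 1.22 in Rxrb to 6.50 in Nr4a1. The largest SD of log2 CPM was that of Nr4a1 (0.72), followed by Nr2c2 and Nr0b2 (0.68 each), Ppara (0.64), and Nr4a3 and Esrrg (0.61 each). The median SD of the members was 0.21, against 0.26 over all genes. A limma fit on the absolute deviations from the group mean called no member, where 1.63% of all genes were called (285, of which 275 were smaller in model mice). At an unadjusted p below 0.05 there were 6 members. The share of all genes below that threshold was not counted, so the 6 cannot be set against a background. Nr0b2 (SD 0.15 in controls, 0.68 in model mice), Nr1i3 (0.16 and 0.56) and Rarb (0.17 and 0.47) spread more widely in model mice, while Nr1i2 (0.26 and 0.14), Thra (0.39 and 0.14) and Nr4a1 did so in controls. Adjusted p-values for these in limma ran from 0.0532 for Thra to 0.222 for Rarb. Thra passed in some of the alternatives.

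Several receptors fell or rose together over the 18 model mice. The leading axis of these mice, the first principal component of all genes tested except nuclear receptors, held 33.1% of the variance and was turned so that Spp1, the osteopontin gene, was high at its upper end. The axis was chosen after the data were seen. By permutation tests with adjustment over all genes, 9 of the 32 members moved with the axis, 7 lower and 2 higher towards its upper end, where 30.1% of all genes moved. Members thus moved with the axis no more often than genes in general. Nr1i3 had the tightest relation (r = -0.95, rho = -0.93, adjusted permutation p = 0.000265; r = -0.93 without the 2 mice farthest from the median). Esrrg followed (r = -0.83, rho = -0.79, adjusted permutation p = 0.000405; -0.87 without those mice). Thrb (r = -0.77), Rxra (-0.74), Nr3c2 (-0.68) and Nr5a2 (-0.66) were lower as well. With the axis computed without those 2 mice, Rxra passed (-0.68), while Thrb (-0.63, adjusted permutation p = 0.0551), Nr3c2 (-0.51, 0.159) and Nr5a2 (-0.52, 0.127) did not. Pparg (r = 0.67, rho = 0.59, adjusted permutation p = 0.00975; 0.62 without those mice) and Rarg (r = 0.65, rho = 0.68, adjusted permutation p = 0.0159; 0.70 without those mice) were higher. Ppara passed too, but its values fell into 2 sets of mice. Over the 14 mice outside the 4 libraries of high ribosomal protein share, with the axis computed from them, its r was -0.36 (adjusted permutation p = 0.388). On that axis Nr1i3 (-0.93), Esrrg (-0.76), Pparg (0.87), Rarg (0.70) and Thrb (-0.68) still passed, as did Nr2f2 (-0.75) and Rarb (0.69), while Rxra (-0.56), Nr3c2 (-0.51) and Nr5a2 (-0.64) did not.

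**Figure D4:**
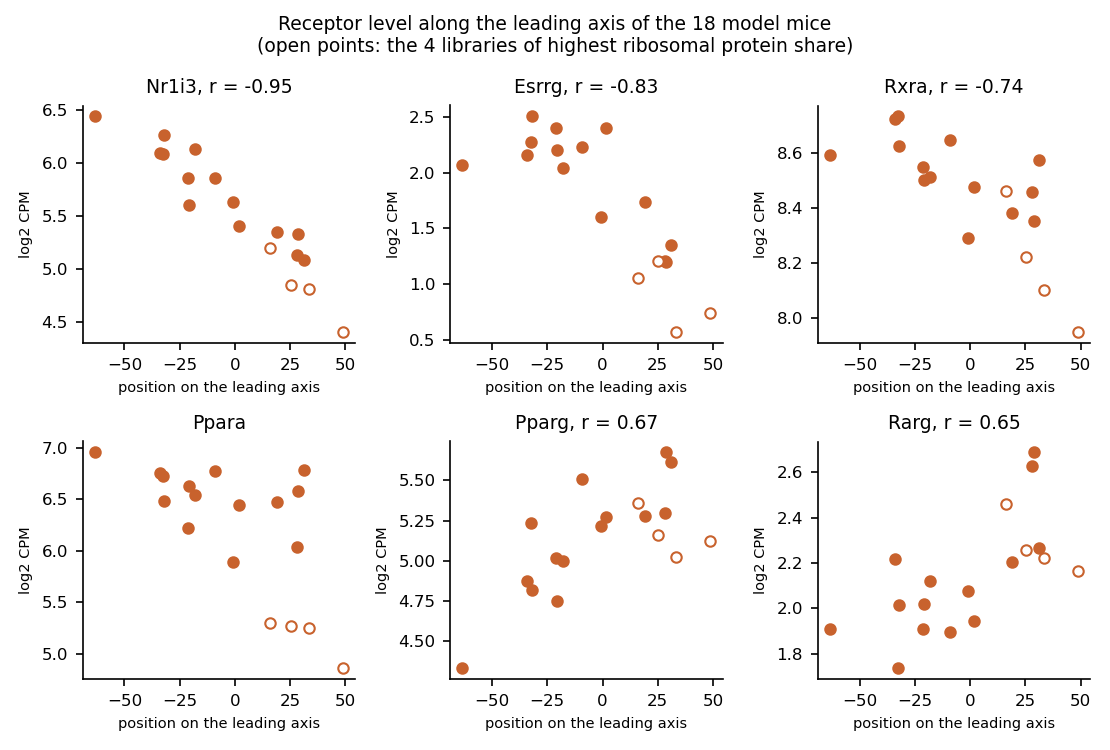
Level of 6 receptors (log2 CPM, vertical axes) against the position of each of the 18 model mice on their leading axis (horizontal, no unit); open points are the 4 libraries of highest ribosomal protein share. Nr1i3 falls along the axis (r = -0.95) and Pparg rises (r = 0.67), while in Ppara the 4 open points lie below all others.

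Other features of the libraries moved with the same axis, and their part in these relations was not tested. Over the model mice the mean log2 CPM of the hepatocyte markers had r of -0.86 with the axis. That of the cholangiocyte markers had r of 0.92 and that of the macrophage markers 0.39. The r was 0.80 for the TMM factor and 0.86 for the ribosomal protein share. The ribosomal protein share had r of -0.7 or below with 9 members, the lowest being Esrrg and Nr1i3 (-0.89 each), Ppara (-0.85) and Rxra (-0.84), given as descriptions over 18 libraries. With library totals alone, Nr1i3 (r = -0.88), Esrrg (-0.78), Pparg (0.77) and Rarg (0.78) moved with the axis in the same directions. Thrb (-0.41), Rxra (-0.48), Nr3c2 (-0.24), Nr5a2 (-0.19) and Ppara did not pass there, and Nr1h3 (0.57), Rxrb (0.63), Nr2c1 (0.60) and Nr4a3 (0.56) passed as higher.

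Among all 496 pairs of tested members, examined after the data were seen, 37 passed over the 18 model mice. The share that passes among pairs of other genes was not computed, so the count shows nothing particular to receptors. The tightest was Ppara with Nr2c2. The same 4 mice were lowest in both, models 3, 13, 16 and 18, so no pooled value is given, and over the other 14 mice r was 0.81. Nr2c2 shares 30.7% of its exon bases with Mrps25 on the opposite strand, whose level ran against it over the 18 model mice (r = -0.85, a description). Nr1i3 and Thrb came next (r = 0.86, rho = 0.87, adjusted permutation p = 0.00248; 0.74 without the 4 libraries). Nr1i3 and Esrrg also moved together (r = 0.84, rho = 0.77, adjusted permutation p = 0.00413; 0.69 without the 4 libraries). Nr1i3 ran with its antisense neighbour Tomm40l as well (r = 0.88, a description).

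Whether target genes followed their receptors was read from lists of known targets. The 7 tested PPARγ targets were all higher (median log2 fold change 3.09), and so was Pparg itself. Cidea, a lipid droplet protein gene, went from 0.0338 to 0.189 CPM in controls (median 0.108) to 6.81 to 118 CPM in model mice (median 47.2; log2 fold change 8.73, SE 0.63). Mogat1, an enzyme gene of triglyceride synthesis, had a log2 fold change of 4.45 (SE 0.28). Of 12 LXR targets, 11 rose with a median of 1.22, while Nr1h3 and Nr1h2 had values of -0.12 and -0.28. Abcg1, a cholesterol exporter gene, went from 1.54 to 3.25 CPM in controls to 8.75 to 26.7 CPM in model mice (2.96, SE 0.22), and Scd1, a fatty acid desaturase gene, had a value of 2.48 (SE 0.26). Macrophages also carry Abcg1, Cd36 and Lpl, and the macrophage markers rose by a median of 2.62.

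Most genes of both FXR lists were lower, as was Nr1h4. Of 8 genes that FXR induces, 6 fell and 1 rose, with a median of -0.44. With the clock covariate, as with library totals alone, 4 fell and 1 rose. Sdc1 fell without overlap (-0.66, SE 0.09), and Slc51b, a bile acid exporter gene, rose (1.65, SE 0.53), but did not pass beside the clock covariate (1.48, adjusted p = 0.144). Of 4 bile acid genes that the FXR pathway represses, 3 fell too, among them Cyp7b1 (-2.79, SE 0.25) and Cyp8b1 (-1.86, SE 0.24). By library totals alone 3 of the 4 fell and 1 rose. Induced and repressed targets thus went the same way. Of 16 PPARα targets, 9 fell and 1 rose (median -0.39), with Acot1 at -1.89 (SE 0.41) and Cyp4a14, a fatty acid hydroxylase gene, at -1.88 (SE 0.40). With the clock covariate 6 fell and 1 rose, and with library totals alone 5 fell and 4 rose. Of 15 CAR and PXR targets, 5 fell and 3 rose (median -0.40). With the clock covariate 5 fell and 1 rose, and with library totals alone 4 fell and 6 rose. Gadd45b fell (-1.67, SE 0.16) and Abcb1a, a drug exporter gene, rose (2.10, SE 0.31), and Cyp2b10, the classic CAR target, did not pass (0.98).

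Of 6 thyroid hormone receptor targets 3 rose and 3 fell, with Thrsp at 1.32 (SE 0.43) and Hr at 1.25 (SE 0.33). With library totals alone 3 rose and 1 fell, and with the clock covariate Thrsp did not pass (0.58, adjusted p = 0.419). Of 6 retinoic acid receptor targets 3 rose and none fell, led by Tgm2, a transglutaminase gene (1.47, SE 0.15), and Lrat, which stores retinol in stellate cells (1.06, SE 0.19). Of 8 estrogen-related receptor targets, 3 fell and 1 rose: Atp5b, a subunit of ATP synthase, fell by 0.50 on the log2 scale (SE 0.08) and Vldlr, a lipoprotein receptor gene, rose by 2.69 (SE 0.32). In that list 3 rose and 1 fell with library totals alone. Of 11 coactivator genes, 5 fell and none rose, while with library totals alone 3 rose and 1, Lpin1, fell. Lpin1, which acts with PPARα and PGC-1α, had the lowest value (-2.57, SE 0.29). Its level ran from 14.1 to 333 CPM in controls (median 84.3) and from 15.0 to 25.0 CPM in model mice (median 17.5). Control 1, at 14.1 CPM, lay below all model mice, so no model mouse was below all controls. The spread of Lpin1 was larger in controls (limma, adjusted p = 0.0122). Ppargc1a, the gene for PGC-1α, was at -0.48 (SE 0.19, adjusted p = 0.0289). The Ppargc1a call was lost without the 4 libraries of high ribosomal protein share (-0.39, adjusted p = 0.0781) and with library totals alone (-0.15, adjusted p = 0.499). Of 8 corepressor genes 2 rose and 3 fell, with Lcor at -0.67 and Ncor1 at -0.33. The same list had 4 higher and none lower with library totals alone, and with the clock covariate neither Lcor (adjusted p = 0.249) nor Ncor1 (adjusted p = 0.218) passed. Of 16 further nuclear receptors, 8 could be tested, of which 4 rose and 2 fell. Nr1d1 (REV-ERBα), a repressor of the clock, had a value of 2.13 (SE 0.25), without overlap between groups. Hnf4a fell from a median of 1051 to 585 CPM, also without overlap (-0.93, SE 0.09), a lower value than that of any member. Per length Hnf4a was more abundant than every member, at 232 ± 45.7 CPM per kilobase in controls and 122 ± 15.4 in model mice.

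**Figure D5:**
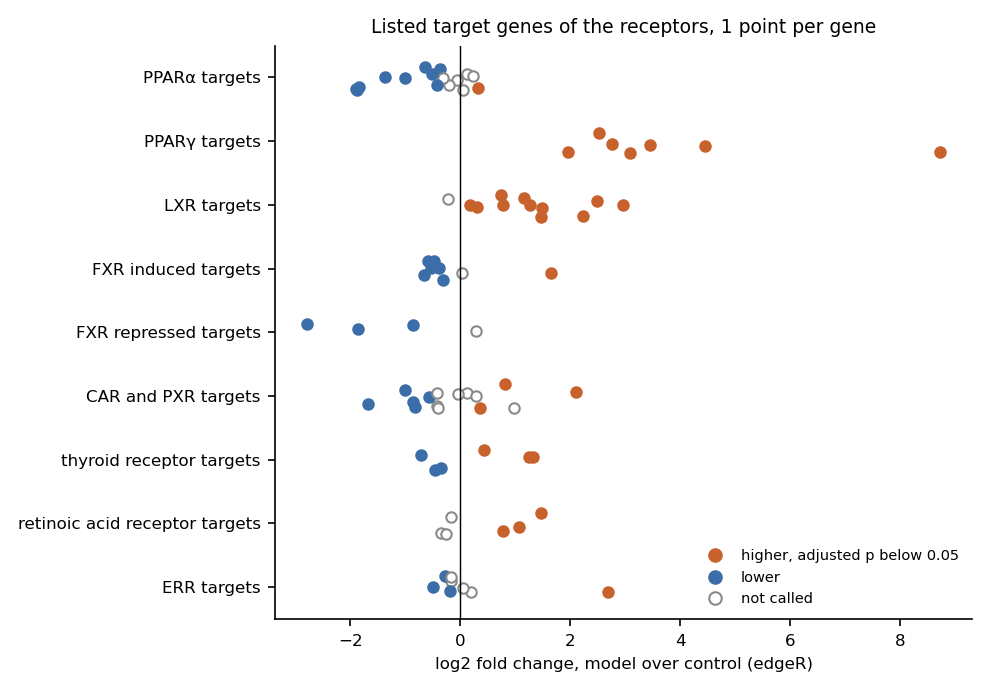
Log2 fold change, model over control (horizontal axis, edgeR), of each tested gene in 9 lists of receptor targets; filled points had an adjusted p below 0.05. All 7 PPARγ targets and 11 of 12 LXR targets lie on the higher side, and the FXR repressed list reaches -2.79.

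Within the model mice, 13 receptor and partner relations were examined, and 3 passed adjustment over the 18 mice. Pparg rose and fell with Cidec, a lipid droplet gene (r = 0.70, permutation p = 0.00109, adjusted 0.00708; rho = 0.71, permutation p = 0.00124, adjusted 0.0131), and r was 0.61 without the 2 mice farthest from the median of Pparg. Pparg also moved with the mean of the macrophage markers (r = 0.59, permutation p = 0.0102, adjusted 0.0444; rho = 0.64, permutation p = 0.00502, adjusted 0.0218; r = 0.46 without those mice). Without the 4 libraries of high ribosomal protein share its r with the macrophage markers was 0.61 (adjusted permutation p = 0.0836). Ppara and Cyp4a14 passed over all 18 mice, but the 4 mice low in Ppara stood apart, and over the other 14 mice r was 0.51 (adjusted permutation p = 0.198). Nr1i3 with Cyp2b10 (r = 0.49, adjusted permutation p = 0.13; rho = 0.57, adjusted 0.0405) and Nr5a2 with Cyp8b1 (r = 0.41, adjusted permutation p = 0.201; rho = 0.57, adjusted 0.0405) passed by rank alone. Nr1h4 with Nr0b2 did not pass (r = 0.46, adjusted permutation p = 0.13). The other 7 relations had r between -0.31 and 0.35, among them Thrb with Dio1 (r = -0.31, adjusted permutation p = 0.325) and Nr4a1 with Nr4a3 (r = 0.22, adjusted permutation p = 0.449). Nr1i2 with Cyp3a11 had r = 0.35 (adjusted permutation p = 0.283), and 0.59 with library totals alone (adjusted permutation p = 0.0276). With the position on the leading axis held fixed, the partial r was 0.37 for Pparg with Cidec, 0.48 for Pparg with the macrophage markers and -0.18 for Nr5a2 with Cyp8b1.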

How the data were processed

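Liver RNA of 24 mice, 6 control and 18 model, was analysed from the deposited table of raw counts per Ensembl gene. Per the labels' protocols, libraries were made from oligo(dT)-captured messenger RNA, and per the submitters' processing notes the reads were placed on GRCm39. Neither aligner, counter, annotation release nor strand use is named in the sources at hand. The exon length in bases, per the file headers, was used only for CPM per kilobase. Symbols came from a reference table of gene names (51498 IDs matched). Groups came from the labels. All 24 libraries entered edgeR 4.0.16 (R 4.3.3), with its quasi-likelihood F test, TMM factors, the default expression filter and the group alone, with Benjamini-Hochberg adjustment over all genes. The SE of a log2 fold change is its size over the root of F. Spread was tested with limma 3.58.1 on log2 CPM (prior count 2), and correlations by two-sided permutation with 100000 resamples; scripts were tested on simulated data. Alternatives were library totals alone, upper-quartile or RLE factors, limma-voom, DESeq2 1.42.0, 2 other filters, a threshold of 0.01, the replicate number as a block, a clock covariate, a prior count of 0.5 and each library left out. The axis, its alternatives, the member pairs and the removal of 4 libraries were chosen after seeing the data; those 4 were also the lowest in Ppara. Members and lists were chosen with earlier results of these data known. Full ranges were given for called members changed at least 2-fold, the most abundant of each role per length and the 3 most variable in model mice; ranges of other members were added after their values were seen. Of each other list, the 2 called genes of largest change were named. Of these, 1 gene is not reported here. Some list genes named beyond that rule were chosen after their values were seen. No molecular identifiers are named, so reads may repeat molecules.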

Additional observations from a re-analysis of the deposited data

Results flagged for a closer look

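Of the 33 members examined, 1 had a control value far from the others of its group. Rarb stood at 0.571 CPM in control 2, and the nearest other control was at 0.451 CPM. Chance gives such a gap in about 1 of 20 groups. Without control 2 the call of Rarb was kept.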

How the results depend on the processing

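With each library left out in turn, 734 of 768 comparisons kept their direction and side of the threshold, as did 294 of 348 under the other alternatives. With library totals alone 3 members were lower, and the values of Nr1h2 (0.048), Nr1h3 (0.21), Ppara (0.12), Thrb (0.094), Nr2c1 (0.13), Nr5a2 (0.13), Nr6a1 (0.20) and Esr1 (0.039) changed sign, which follows from the shift of all genes. Nr4a1 changed sign with the clock covariate (-0.63) and without control 1 (-0.16), control 2 (-0.15), control 4 (-0.08), model 5 (-0.02), model 7 (-0.00415) or model 8 (-0.09), with a range from -0.16 to 0.47 over single libraries left out, and the cause was not tested. Without the 4 libraries of high ribosomal protein share Ppara was 0.020, 1 relation of 13 passed and 1 member was called for spread. That count was also 1 with a prior count of 0.5 and with library totals alone, and 0 to 2 with each library left out. Without the 2 mice farthest from the axis median 2901 genes moved with the axis, with fewer mice. The replicate block used numbers 1 to 6 and called 8 members lower, with Nr2f1 and Nr4a3 not tested. Those numbers did not pair the mice (correlations from -0.29 to 0.07, 1 of 6 controls best with its own number). Depth limits Vdr, Nr2f1, Nr4a3 and Rarb.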
